A study of Homo sapiens with 18 samples.

Results

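The response of mixed cultures of MCF10A and HCT116 cells to 10 Gy of ionizing radiation was described across all genes of the deposited count tables. The comparison used the 6 of 18 libraries whose titles call them mixtures of both lines, 3 irradiated (10 Gy) against 3 non-irradiated (NIR). MCF10A cells are mammary epithelial cells that are not transformed, and those used here expressed a histone H2B-GFP fusion. HCT116 cells come from a colorectal carcinoma; they carried no reporter and were labelled p53-null. The mixed groups were described as co-cultures holding 50% of each line, with 3 biological replicates per group, so p-values measure the spread between such replicates. Each monoculture had its own medium, and the labels do not say which one the mixture received. Sample titles place the harvest on day 2, whereas the series text gives 72 hours after irradiation; the tables cannot settle which holds. The HCT116 monocultures, 3 NIR and 3 irradiated with 10 Gy, served as the nearest comparison, and the MCF10A monocultures of both treatments as a reference for levels.

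Ionizing radiation breaks DNA, and the break signal is relayed by checkpoint kinases to effectors such as the transcription factor p53, which induces inhibitors of the cell cycle, repair enzymes and death receptors. Cells that leave the cycle lose the transcripts of replication and mitosis, which are held down in arrested cells by repressor complexes that bind elements such as the cell-cycle homology region (CHR). DNA and RNA that reach the cytosol after damage are read by nucleic acid sensors, and the interferon signal that follows acts through the interferon-stimulated response element (ISRE) on a large set of antiviral genes.

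The label of an even mixture was checked against the data first, because the results below rest on it. The contribution of MCF10A to the counted RNA was estimated from genes seen in 1 line alone (at least 20 CPM in a line and under 1 CPM in all libraries of the other; CPM is counts scaled to a library total of 1e+06). It was 0.498%, 0.368% and 0.395% in the NIR libraries and 1.24%, 1.17% and 1.27% after 10 Gy. The groups did not overlap, and the difference between the means was 0.806 percentage points, with an exact 2-sided permutation p of 0.1, the smallest that 3 against 3 libraries allow. Another form of the estimate, from the mean ratio in place of the median, gave 0.860% and 2.04%. The ratio of mixed to MCF10A level spread widely over the genes of each library. Its lower quartile was 0.0734% to 0.1186% in NIR and 0.326% to 0.551% after 10 Gy. Its upper quartile was 1.015% to 1.065% in NIR and 2.283% to 2.569% after 10 Gy. The 10 basal mammary markers summed to 44.1 to 53 CPM in the NIR and 184 to 226 CPM in the irradiated mixed libraries. In MCF10A monocultures the sum was 8633 to 11350 CPM. In HCT116 monocultures it was 5.36 to 7.09 CPM in NIR and 29.8 to 32.8 CPM after 10 Gy. It therefore rose in HCT116 alone as well, where COL17A1 went from 3.41 to 25.3 CPM. The labelled mixture was thus mostly HCT116 RNA by these genes, and in bulk RNA fewer cells of a type and less RNA per cell cannot be told apart. Of the 12 colorectal markers, EPCAM, KRT19 and CDX2 were present, while the intestinal genes CDX1, CEACAM5 and ASCL2 were at or near 0. VIL1, CDH17, GPA33 and LGR5 also stayed under 1 CPM in the mixed libraries. Only 3 to 5 of the 12 reached 1 CPM in any mixed library, and likewise 3 to 5 in HCT116 monocultures. Of 157 genes specific to MCF10A, 96 had enough counts in the mixed libraries to be tested. Of these, 61 were called higher after 10 Gy and 0 lower, and the median log2 fold change was 1.63. Over all genes tested, 24.0% were called higher and 25.4% lower. The filter on low counts lets a gene pass through 1 group alone, so genes low in NIR could enter through the irradiated libraries. The split and the median are therefore no test of a changed share. Mixed libraries held 27.9 to 37.4 M counts, where M is 1e+06, and mitochondrially encoded genes took 8.54% ± 0.177 of the counts in NIR and 12.3% ± 0.354 after 10 Gy (SD, n = 3).

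**Figure D1:**
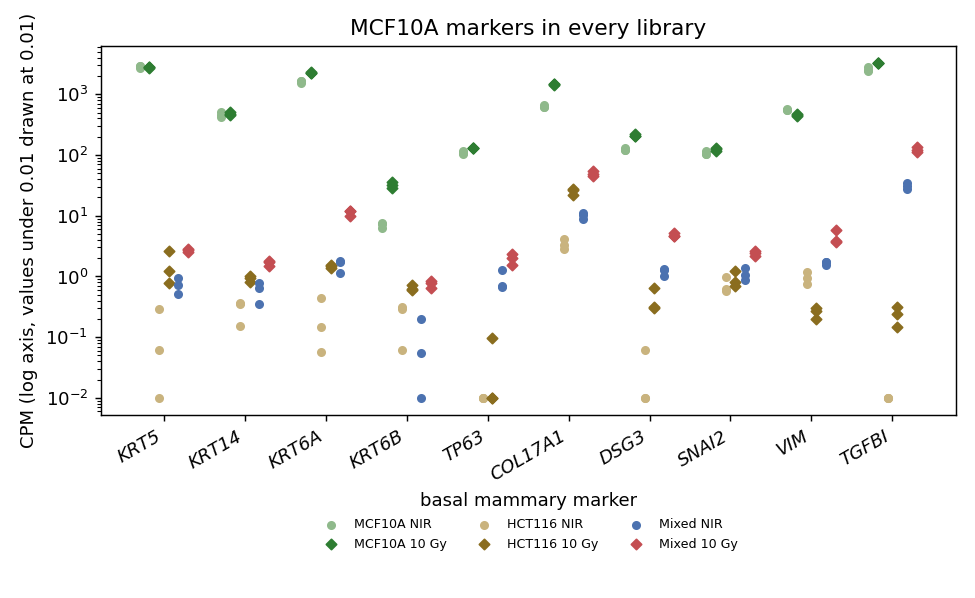
Levels of 10 basal mammary markers (CPM, log axis; values under 0.01 drawn at 0.01) in every library of MCF10A, HCT116 and mixed cultures, one point per library, NIR as circles and 10 Gy as diamonds. Mixed libraries lay far below MCF10A, and their 10 Gy points lay above their NIR points.

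Changes after 10 Gy were broad. Of 16906 genes tested, 8347 (49.4%) had an adjusted p under 0.05, 4060 higher (24.0%) and 4287 lower (25.4%). By at least 2-fold, 1022 genes (6.05%) were higher and 726 (4.29%) lower. Every adjusted p below is from edgeR's quasi-likelihood test over all genes tested, errors of log2 fold changes are standard errors, and errors of CPM are SD over 3 libraries. Because so many genes were called, counts within gene lists are read against these background shares. Libraries of the groups did not overlap for 5035 genes that were higher (29.8%) and 4508 that were lower (26.7%). Of the 1022 genes at least 2-fold higher, 232 were under 1 CPM in all HCT116 libraries, and 57 of these reached 20 CPM in irradiated MCF10A; of the 726 lower genes, 52 and 0 did so. The part of the MCF10A share in the higher calls was not tested gene by gene. A fit without genes specific to MCF10A gave 950 genes at least 2-fold higher and 737 lower. That fit cannot measure this part, because it keeps genes that HCT116 also expresses but MCF10A holds at far higher levels. FN1 is 1 of them, at 5769 CPM in irradiated MCF10A and 42.3 CPM in irradiated HCT116.

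The largest rises among genes at 10 CPM or more included those of 2 keratin-associated proteins, a kallikrein-related protease and an interferon-stimulated gene. KRTAP3-1, a keratin-associated hair protein, had 0.286, 0.0577 and 0.167 CPM in the NIR libraries and 14.9, 11.8 and 10.7 CPM after 10 Gy (log2 fold change 6.2 ± 0.29, adjusted p = 2.9e-13). KLK5, a secreted serine protease of the kallikrein-related family, had 0.68, 0.404 and 0.695 CPM in the NIR libraries and 20.4, 15 and 17.2 CPM after 10 Gy (4.86 ± 0.20, adjusted p = 6.3e-14). For both genes the NIR libraries stayed under 1 CPM and all 3 irradiated libraries stood above 10 CPM. SUSD2, a sushi domain membrane protein, rose from 11.3 ± 0.732 to 176 ± 14.2 CPM (3.93 ± 0.08, adjusted p = 7.7e-19). CPA4, a secreted carboxypeptidase, rose from 14.5 ± 0.507 to 226 ± 21.2 CPM (3.93 ± 0.08, adjusted p = 7.1e-19), and it was the largest rise among genes above 200 CPM. The others of the 10 largest rises were IFI44L (4.23), the noncoding RNA PINCR (3.85), the mucin gene MUC19 (3.43), KRTAP2-3 (3.42, with a near-identical neighbour KRTAP2-4 whose reads may be split), the RAS exchange factor RASGRP3 (3.32) and DYNLT4 (3.21). GALNT5, an enzyme that starts mucin-type glycosylation, rose from 36.4 ± 1.11 to 317 ± 31.3 CPM (3.1 ± 0.07, adjusted p = 6.7e-18).

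The largest falls included those of INSIG1, HMGB2 and 2 CDK inhibitors. INSIG1, the membrane protein that holds back sterol synthesis, had 55.5, 51.2 and 53.1 CPM in the NIR libraries and 9.52, 11.7 and 11.2 CPM after 10 Gy (-2.33 ± 0.09, adjusted p = 1.7e-14). HMGB2, an abundant chromatin protein of dividing cells, had 531, 475 and 455 CPM in the NIR libraries and 102, 116 and 113 CPM after 10 Gy (-2.17 ± 0.06, adjusted p = 4.7e-16). In both, the highest irradiated library lay far below the lowest NIR library. KLF2, a Krüppel-like transcription factor, fell from 27.7 ± 6.63 to 6.13 ± 1.23 CPM (-2.21 ± 0.16, adjusted p = 1.7e-10), and PEG10, an imprinted gene derived from a retrotransposon, fell from 93 ± 8.16 to 22.5 ± 1.68 CPM (-2.08 ± 0.08, adjusted p = 2.5e-14). The CDK inhibitors CDKN2C (-2.03) and CDKN1C (-2.02), the linker histone gene H1-10 (-2.01), EBF2 (-1.97), ARHGAP33 (-1.94) and the pseudogene NPM1P27 (-1.85; its counts may be reads of its parent gene) made up the 10. Above 200 CPM the largest falls after HMGB2 were MKI67 (-1.82), the condensin subunit SMC4 (-1.67), the chromatin ATPase ATAD2 (-1.63) and the kinetochore protein CENPF (-1.57).

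**Figure D2:**
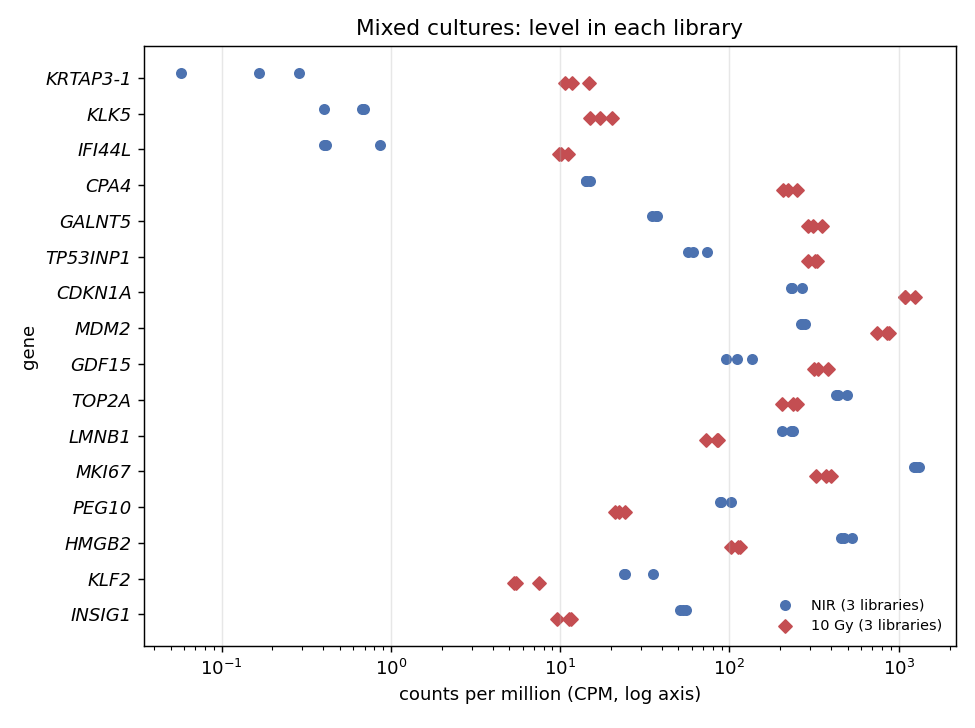
Level of 16 named genes in each mixed library (CPM, log axis), NIR as circles and 10 Gy as diamonds, 3 libraries each. The groups of each gene are separate.

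Target genes of p53 rose throughout, although nearly all of the RNA came from cells labelled p53-null. Of 23 targets for arrest, feedback and repair, 21 were tested and all 21 were higher, with a median log2 fold change of 1.13 against 0.01 over all genes tested. CDKN1A, which encodes the CDK inhibitor p21, had 233, 270.3 and 235 CPM in the NIR libraries and 1251, 1096 and 1089.6 CPM after 10 Gy (2.19 ± 0.07, adjusted p = 9e-16). MDM2, the ubiquitin ligase that degrades p53, had 265, 267 and 279 CPM in the NIR libraries and 746, 873 and 858 CPM after 10 Gy (1.58 ± 0.06, adjusted p = 1.5e-14). GDF15, a secreted stress cytokine, had 96, 136 and 111 CPM in the NIR libraries and 381, 317 and 335 CPM after 10 Gy (1.56 ± 0.09, adjusted p = 1.2e-11). In all 3 genes, every irradiated library lay above every NIR library. TP53INP1, a promoter of p53-dependent death and autophagy, rose from 63.8 ± 8.52 to 314 ± 18.7 CPM (2.27 ± 0.08, adjusted p = 3.7e-15), and the kinase gene PLK2 rose from 36 ± 2.04 to 157 ± 10.6 CPM (2.1 ± 0.07, adjusted p = 2.8e-15). The smallest rise on the list was DDB2 (0.23), a sensor of ultraviolet lesions. Of 13 apoptosis targets, 12 were tested and 12 were higher, with a median of 0.66. TP53I3, a quinone oxidoreductase, rose from 9.99 ± 0.298 to 61.1 ± 7.53 CPM (2.59 ± 0.10, adjusted p = 1e-14), the decoy death receptor TNFRSF10C from 1.94 ± 0.51 to 8.82 ± 0.238 CPM (2.16 ± 0.19, adjusted p = 6.5e-09) and the exonuclease gene AEN from 42.6 ± 2.46 to 83.1 ± 5.53 CPM (0.94 ± 0.07, adjusted p = 6.1e-10). In the HCT116 monocultures the medians of these lists were 1.39 and 0.91, and in MCF10A 0.58 and 0.34.

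Among pro-survival BCL2 proteins, BCL2L1 (0.47) and BCL2L2 (0.32) rose, BCL2 fell (-0.74) and MCL1 was not called (0.00). TP63, a marker of basal epithelium, was called higher (1.15) but is among the MCF10A-specific genes. TP73 fell (-0.49 ± 0.10, adjusted p = 0.00025), while MDM4 (-0.12) and COP1 (0.04) were not called. RCHY1 was called higher (0.19 ± 0.07, adjusted p = 0.042), a call that ended when any 1 library was left out. Besides CDKN1A, the CDK inhibitors went down: of 7, 6 were lower and CDKN2B was not called (0.26). CDKN3, a phosphatase acting on CDKs, fell from 47.7 ± 2.51 to 20.5 ± 3.05 CPM (-1.24 ± 0.09, adjusted p = 4.7e-10), and CDKN2C and CDKN1C had the lowest values of the list.

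Transcripts of proliferation fell in nearly every member measured. MKI67, the marker of cycling cells, had 1312, 1230.3 and 1267 CPM in the NIR libraries and 325, 400.4 and 373 CPM after 10 Gy (-1.82 ± 0.06, adjusted p = 4.2e-15). TOP2A, the topoisomerase that untangles mitotic chromosomes, had 439, 426 and 492 CPM in the NIR libraries and 203, 252 and 236 CPM after 10 Gy (-1.0 ± 0.07, adjusted p = 1.6e-10). Their irradiated libraries were all below the NIR libraries. Of 40 mitosis, spindle and kinetochore genes tested, 39 were lower and 0 higher (median -1.26); the exception, NUSAP1, was counted at under 1 CPM and not called (-0.35). AURKB, the kinase of the chromosomal passenger complex, fell from 80.8 ± 5.71 to 25.2 ± 1.04 CPM (-1.71 ± 0.07, adjusted p = 1.2e-13), and the kinetochore gene NUF2 fell from 87.3 ± 5.3 to 28.7 ± 4.04 CPM (-1.63 ± 0.09, adjusted p = 1.9e-12). Of 39 replication and nucleotide synthesis genes, 38 were lower and 1 higher (median -1.10). RFC4, a subunit of the clamp loader, fell from 84.8 ± 8.05 to 31.2 ± 3.78 CPM (-1.47 ± 0.08, adjusted p = 7.1e-12). RRM2, the regulated subunit of ribonucleotide reductase, fell from 784 ± 8.96 to 290.1 ± 15.7 CPM (-1.46 ± 0.05, adjusted p = 1e-14), and the helicase subunit gene MCM7 fell from 501 ± 12.4 to 189 ± 13.6 CPM (-1.43 ± 0.06, adjusted p = 4.6e-14). The gene that rose was CCNE1, the cyclin that opens S phase (from 30.5 ± 2.36 to 39.2 ± 3.46 CPM; 0.34 ± 0.09, adjusted p = 0.0023). PCNA, which is also a p53 target, had the smallest fall (-0.33). Without genes specific to MCF10A, these lists kept all of their members, as none was specific.

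Promoters of the mitosis genes are shown because most hold the CHR letters close to the start site, which the replication promoters seldom do. Sequences are RefSeq's on GRCh38.p14, 5′ to 3′ on the gene's strand and upstream of the start, with the CHR letters TTTGAA in capitals; they were chosen for their matches after the values were seen.
MKI67: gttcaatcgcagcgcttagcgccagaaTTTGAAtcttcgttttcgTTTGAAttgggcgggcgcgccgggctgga
CCNB2: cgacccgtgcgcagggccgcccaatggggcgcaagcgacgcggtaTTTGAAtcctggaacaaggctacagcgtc
PLK1: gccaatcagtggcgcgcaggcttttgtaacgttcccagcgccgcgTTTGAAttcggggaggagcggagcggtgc
CDC20: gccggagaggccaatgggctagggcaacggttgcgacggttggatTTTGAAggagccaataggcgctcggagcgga
They lie at chr10:128126424-128126497 (minus strand), chr15:59105072-59105145 (plus), chr16:23678815-23678888 (plus) and chr1:43358871-43358946 (plus). In MKI67, CCNB2 and PLK1 the last base of a match lay 24 bases before the start, and in CDC20 60 bases before it. Searched on both strands from 250 bases before to 50 after the start, TTTGAA was in 14.1% of the 12541 tested genes with a promoter sequence. It was in 24 of 33 mitosis promoters (72.7%) and in 2 of 33 replication promoters (6.06%). The CCAAT letters, read as ATTGG on the other strand, can share 1 base with TTTGAA, as beside the second capitalised match of MKI67. They were in 42.5% of all, in 26 of 33 mitosis promoters (78.8%) and in 19 of 33 replication promoters (57.6%). Among genes at least 2-fold lower, 23.7% held TTTGAA and 57.4% CCAAT, against 17.3% and 37.8% of those at least 2-fold higher. These are counts of letters and not of bound sites. The 3 cell-cycle genes shown with MKI67 had log2 fold changes of -1.06 (CCNB2), -1.25 (PLK1) and -1.28 (CDC20).

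Structural chromatin proteins and repair factors of dividing cells fell with them. Of 8 nuclear lamina and HMGB genes, 7 were lower and 1 higher (median -1.31). HMGB1, which bends DNA and is an alarm signal once released, fell from 1218 ± 46.3 to 418 ± 45.4 CPM (-1.57 ± 0.06, adjusted p = 6.2e-14). LMNB1, the B-type lamin whose loss marks senescent cells, had 237, 206 and 232 CPM in the NIR libraries and 72.4, 85.7 and 84.1 CPM after 10 Gy (-1.5 ± 0.07, adjusted p = 2.4e-13), and no irradiated library reached the NIR range. LMNA, the A-type lamin, rose slightly (0.21 ± 0.05, adjusted p = 0.0028). Of 29 checkpoint, homologous recombination and Fanconi genes, 24 were lower and 2 higher (median -0.94). FANCA, a core Fanconi subunit, fell from 138 ± 5.85 to 53.2 ± 2.77 CPM (-1.4 ± 0.06, adjusted p = 1.8e-13), the fork protein gene CLSPN fell from 102 ± 4.48 to 40.7 ± 3.84 CPM (-1.36 ± 0.07, adjusted p = 2.3e-12) and BARD1 fell from 53.4 ± 3.1 to 22 ± 1.31 CPM (-1.31 ± 0.08, adjusted p = 1.5e-11). ATR, the kinase of stalled forks, rose from 95.8 ± 2.35 to 135 ± 9.21 CPM (0.47 ± 0.06, adjusted p = 1.5e-06); ATM (0.07), RAD50 (0.25) and MRE11 (-0.12) were not called. Of 19 end-joining, excision and mismatch repair genes, 10 were lower and 4 higher. The base excision scaffold gene XRCC1 (-1.22 ± 0.12, adjusted p = 2e-08) and the mismatch sensor gene MSH6 (-0.88) fell, and the nuclease subunit gene ERCC1 rose (0.53 ± 0.09, adjusted p = 4.1e-05).

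Clustered histone genes went both ways. Only 12 of 26 passed the filter on low counts in these poly(A) libraries, 5 higher and 4 lower; near-identical copies make single values uncertain. H2AC6 rose from 4.3 ± 0.203 to 19.8 ± 1.57 CPM (2.18 ± 0.12, adjusted p = 5.9e-12), H2BC5 from 2.82 ± 1.08 to 13.2 ± 1.55 CPM (2.22 ± 0.19, adjusted p = 5.1e-09) and H2BC12 from 4.31 ± 0.455 to 15.4 ± 0.536 CPM (1.81 ± 0.13, adjusted p = 2.9e-10). Of 17 tested genes for APOBEC3 enzymes, polycomb and DNA methylation, 10 were lower and 4 higher. The polycomb methyltransferase EZH2 fell from 199.5 ± 4.78 to 78.1 ± 5.12 CPM (-1.38 ± 0.06, adjusted p = 1.2e-13) and UHRF1, which guides maintenance methylation, fell from 180.1 ± 16.3 to 87.2 ± 5.23 CPM (-1.07 ± 0.07, adjusted p = 2.6e-11). APOBEC3C, a cytidine deaminase that restricts retroelements, rose from 68.8 ± 3.08 to 168 ± 13.7 CPM (1.26 ± 0.07, adjusted p = 2e-12), and APOBEC3F, APOBEC3G and APOBEC3H were also called higher.

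Interferon-stimulated genes rose as a group. Of 35 effectors, 34 were tested, 32 were higher, 0 lower and 2 not called (USP18 at 0.24, UBA7 at -0.21), with a median of 1.42. IFI44L, an antiviral protein gene, had 0.859, 0.404 and 0.417 CPM in the NIR libraries and 11.1, 10.2 and 9.91 CPM after 10 Gy (4.23 ± 0.23, adjusted p = 3.8e-12). OAS1, the enzyme that makes oligoadenylates from double-stranded RNA, had 1.0, 1.07 and 1.0 CPM in the NIR libraries and 8.42, 9.76 and 9.41 CPM after 10 Gy (3.14 ± 0.19, adjusted p = 1.5e-11). TRIM22, an antiviral ubiquitin ligase, had 0.93, 0.894 and 1.08 CPM in the NIR libraries and 9.18, 8.47 and 10.8 CPM after 10 Gy (3.26 ± 0.20, adjusted p = 1.5e-11). Each was near or under 1 CPM without irradiation and near 10 CPM with it, in all libraries. IFIT1, which binds viral RNA ends, rose from 15.4 ± 3.18 to 64.7 ± 1.63 CPM (2.04 ± 0.10, adjusted p = 1.3e-12), and the membrane protein gene IFI6 from 8.62 ± 0.895 to 37.5 ± 1.1 CPM (2.1 ± 0.10, adjusted p = 3e-13). The list's median was 0.69 in HCT116 and 0.87 in MCF10A monocultures. No tested member of the list was specific to MCF10A.

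The ISRE letters were frequent in their promoters. The stretches below belong to 4 effectors that hold a match and whose response differed from that of HCT116 monocultures, chosen after the values were seen, with the element in capitals: GAAA and GAAA with any 2 bases between them, or, on the other strand, TTTC and TTTC.
IFI44L: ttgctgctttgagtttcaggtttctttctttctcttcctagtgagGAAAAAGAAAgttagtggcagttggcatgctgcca
IFIT1: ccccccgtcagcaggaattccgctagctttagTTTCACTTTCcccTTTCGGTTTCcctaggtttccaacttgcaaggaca
IFI6: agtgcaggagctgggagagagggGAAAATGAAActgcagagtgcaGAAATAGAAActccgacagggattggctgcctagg
IFI44: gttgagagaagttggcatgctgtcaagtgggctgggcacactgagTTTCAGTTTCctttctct
They lie at chr1:78620330-78620409 (plus strand), chr10:89392475-89392554 (plus), chr1:27672251-27672330 (minus) and chr1:78649726-78649788 (plus) on GRCh38.p14, from RefSeq. IFIT1 and IFI6 hold 2 matches each, and the match nearest the start ended 64 bases before it in IFI44L, 94 in IFIT1, 84 in IFI6 and 9 in IFI44. Over both strands of the 300-base windows described above, the motif was in 3.89% of all tested genes with a promoter, in 21 of 26 effector promoters (80.8%) and in 9 of 12 MHC class I presentation promoters (75%). It was in 53 of 659 promoters of genes at least 2-fold higher (8.04%), in 13 of 502 of those at least 2-fold lower (2.59%) and in 0 of 33 mitosis promoters.

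Upstream of the effectors, 23 of 32 sensor, IRF and STAT genes were tested, 14 higher and 2 lower (median 0.37). RIGI, the cytosolic sensor of RNA ends, had 2.43, 4.33 and 3.5 CPM in the NIR libraries and 15.1, 15.2 and 14.5 CPM after 10 Gy (2.08 ± 0.16, adjusted p = 9e-10). TLR3, the endosomal receptor of double-stranded RNA, had 7.16, 5.22 and 5.78 CPM in the NIR libraries and 22, 24.3 and 24.7 CPM after 10 Gy (1.95 ± 0.12, adjusted p = 2.1e-11). The irradiated libraries of both lay wholly above the NIR libraries. The kinase gene IKBKE rose from 4.57 ± 0.53 to 11.6 ± 1.51 CPM (1.31 ± 0.15, adjusted p = 2.6e-07), and TYK2, a kinase of the interferon receptor, fell (-0.46 ± 0.07, adjusted p = 8.8e-06). The sensor CGAS and the interferon genes IFNB1, IFNL1, IFNL2 and IFNL3 had too few counts to be tested. Of 15 MHC class I presentation genes, 8 were higher and 1 lower (median 0.24). The peptide transporter gene TAP1 rose from 35.7 ± 2.86 to 55.7 ± 2.66 CPM (0.61 ± 0.08, adjusted p = 8.6e-07) and the trimming peptidase gene ERAP2 from 4.14 ± 0.382 to 9.56 ± 0.604 CPM (1.18 ± 0.15, adjusted p = 9.7e-07), while the immunoproteasome subunit gene PSMB9 fell (-0.85 ± 0.16, adjusted p = 0.00011). HLA-C (0.08) was not called, and reads of HLA genes may be split between near-identical members. Ligands of NK cells and checkpoints were 2 higher and 4 lower of 15, below the background in both directions together. PVR, a ligand of DNAM-1 and TIGIT, rose (0.68 ± 0.06, adjusted p = 6.8e-09), and the NKG2D ligand genes ULBP1 (-1.28 ± 0.19, adjusted p = 6.8e-06) and MICB (-0.53 ± 0.08, adjusted p = 4.6e-06) fell.

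Most secreted factors tested were higher. Of 24 interleukins, chemokines and growth factors, 17 were tested, 11 higher and 1 lower (median 0.77); IL6 and TNF had too few counts to be tested. IL18, an inflammasome cytokine, rose from 55.7 ± 5.8 to 102 ± 3.5 CPM (0.84 ± 0.07, adjusted p = 4.6e-09), IL1A from 1.47 ± 0.174 to 5.48 ± 0.625 CPM (1.87 ± 0.21, adjusted p = 2.5e-07) and the neutrophil chemokine gene CXCL8 from 3.45 ± 0.505 to 5.99 ± 0.855 CPM (0.77 ± 0.19, adjusted p = 0.0016). MCF10A monocultures held 961 CPM of IL1B after 10 Gy against 3.1 CPM in the mixed cultures, and 817 CPM of IL1A, and the part of MCF10A RNA in this group was not tested. CXCL3 was the called member specific to MCF10A. NF-kappaB subunits and feedback genes were 4 higher and 3 lower of 15, shares near or under the background. TNFAIP2 rose (0.58 ± 0.07, adjusted p = 7.6e-07), and NFKBIZ (-0.76 ± 0.15, adjusted p = 0.00026) and REL (-0.56 ± 0.10, adjusted p = 6.8e-05) fell. Of 14 tested caspase, inflammasome and pyroptosis genes, 7 were higher and 3 lower: CASP10 (1.09), NLRP1 (0.93) and CASP4 (0.73) rose and GSDMD, the pore former of pyroptosis, fell (-0.34).

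The plasminogen and matrix protease genes were 9 higher, 0 lower and 8 not called of 17 tested (median 0.68). PLAU, the urokinase that activates plasminogen, had 39.9, 39.9 and 33.1 CPM in the NIR libraries and 104, 87.6 and 94 CPM after 10 Gy (1.31 ± 0.08, adjusted p = 2.5e-11). Its groups did not overlap. The gelatinase gene MMP2 rose from 2.27 ± 0.616 to 6.83 ± 1.2 CPM (1.56 ± 0.22, adjusted p = 3.4e-06). SERPINB2 was at 0 in all 3 NIR libraries and at 0.68, 0.508 and 0.662 CPM after 10 Gy, and is specific to MCF10A. Of 21 tested TGF-beta and IGF binding protein genes, 13 were higher and 4 lower (median 0.53). IGFBP6 rose from 13 ± 2.17 to 40.6 ± 1.46 CPM (1.61 ± 0.10, adjusted p = 3.9e-11), and ID1, a target of BMP signalling, fell (-0.55 ± 0.07, adjusted p = 2.3e-06). TGFBI rose from 31.2 ± 3.4 to 124 ± 13.5 CPM (1.96 ± 0.09, adjusted p = 1.3e-13) and INHBA, an activin subunit gene, from 1.92 ± 0.653 to 7.46 ± 0.275 CPM (1.94 ± 0.22, adjusted p = 2e-07), and both are specific to MCF10A, as were TGFB2 and BMP2.

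Genes of adhesion to the matrix rose in most cases: of 26 integrin, laminin and matricellular genes, 19 were higher and 3 lower (median 0.65, and 0.40 in the fit without genes specific to MCF10A). COL17A1, the hemidesmosome collagen, rose from 10.1 ± 1.04 to 49.4 ± 4.82 CPM (2.26 ± 0.10, adjusted p = 1.2e-13), beside 1459 CPM in irradiated MCF10A and 25.3 CPM in irradiated HCT116. TNC (2.12 ± 0.17, adjusted p = 8.8e-10) and COL4A1 (2.14 ± 0.22, adjusted p = 6.2e-08) also rose and are specific to MCF10A, as were ITGB6 and COL4A2. FN1, fibronectin, had 141, 148 and 149.5 CPM in the NIR libraries and 389, 343 and 339.8 CPM after 10 Gy (1.26 ± 0.06, adjusted p = 6.4e-13), with no overlap. ITGA1 fell (-0.78 ± 0.15, adjusted p = 0.00015). YAP target genes were 11 higher and 2 lower of 14 tested (median 0.36). The coagulation starter F3 rose from 54.9 ± 4.49 to 151 ± 20 CPM (1.43 ± 0.08, adjusted p = 8.1e-12), CCN2 from 3.43 ± 0.743 to 7.0 ± 1.23 CPM (1.01 ± 0.19, adjusted p = 0.00014), and AMOT, a binding partner of YAP, fell from 31.7 ± 1.5 to 13.5 ± 0.847 CPM (-1.26 ± 0.09, adjusted p = 2.6e-10). Cadherins, vimentin and EMT factors split 6 higher and 5 lower of 14: P-cadherin (CDH3, 0.60) and OVOL1 (0.92) rose and the splicing factor gene ESRP1 fell (-0.53). CDH2 and VIM, which MCF10A holds at far higher levels, were called higher (2.53 and 1.4).

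Genes of kallikreins, keratins and the cornified envelope were mostly higher. Of 8 tested kallikrein-related peptidases, 6 were higher and 1 lower (median 2.23). KLK7, the chymotryptic partner of KLK5 in skin shedding, had 10.9, 14.6 and 12 CPM in the NIR libraries and 121, 104 and 113 CPM after 10 Gy (3.14 ± 0.10, adjusted p = 5.2e-16). KLK6 had 9.98, 10.8 and 11.3 CPM in the NIR libraries and 87, 74.7 and 73.2 CPM after 10 Gy (2.84 ± 0.09, adjusted p = 9e-16). The 3 kallikreins named were under 1 CPM in MCF10A monocultures of both treatments. Of 18 tested keratins, 16 were higher and 0 lower (median 1.69). KRT80 rose from 11.2 ± 1.26 to 63.3 ± 1.33 CPM (2.47 ± 0.09, adjusted p = 5.1e-15) and the hair keratin gene KRT81 from 3.97 ± 0.729 to 27.1 ± 5.06 CPM (2.75 ± 0.15, adjusted p = 2.2e-12). KRT81 stood at 2379 CPM in irradiated MCF10A and 7.37 CPM in irradiated HCT116, and the part of MCF10A RNA in its rise was not tested. KRT6B was the called keratin specific to MCF10A. KRT6A, a keratin of wounded epidermis, rose from 1.55 ± 0.345 to 11.3 ± 1.24 CPM (2.84 ± 0.19, adjusted p = 5.7e-11), but it is a basal mammary marker that stood at 2282 CPM in irradiated MCF10A and 1.46 CPM in irradiated HCT116. Of 15 tested cornified envelope, clade B serpin and S100 genes, 10 were higher and 1 lower (median 1.05). SERPINB5, maspin, had 54.1, 48.6 and 45.4 CPM in the NIR libraries and 229, 207 and 202 CPM after 10 Gy (2.08 ± 0.07, adjusted p = 3.2e-15), with every irradiated library above the NIR range. LCN2, the iron-trapping lipocalin, rose from 1.59 ± 0.432 to 6.5 ± 1.45 CPM (2.01 ± 0.23, adjusted p = 3.5e-07), and S100A10 fell (-0.38 ± 0.06, adjusted p = 3.1e-05). Desmosome genes split 3 and 3 of 8: DSC3 (0.47) and plakoglobin (JUP, 0.40) rose and DSC2 fell (-0.60). The largest value was that of DSG3 (1.98), which was called higher and is specific to MCF10A. Only 6 of 23 intestinal identity genes had counts to test, of which 4 were higher. CEACAM1, an adhesion receptor, rose from 2.54 ± 0.432 to 20 ± 2.61 CPM (2.93 ± 0.15, adjusted p = 1.2e-12), and CDX2, a colon transcription factor, from 8.16 ± 1.21 to 12.8 ± 1.32 CPM (0.62 ± 0.13, adjusted p = 0.00057).

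**Figure D3:**
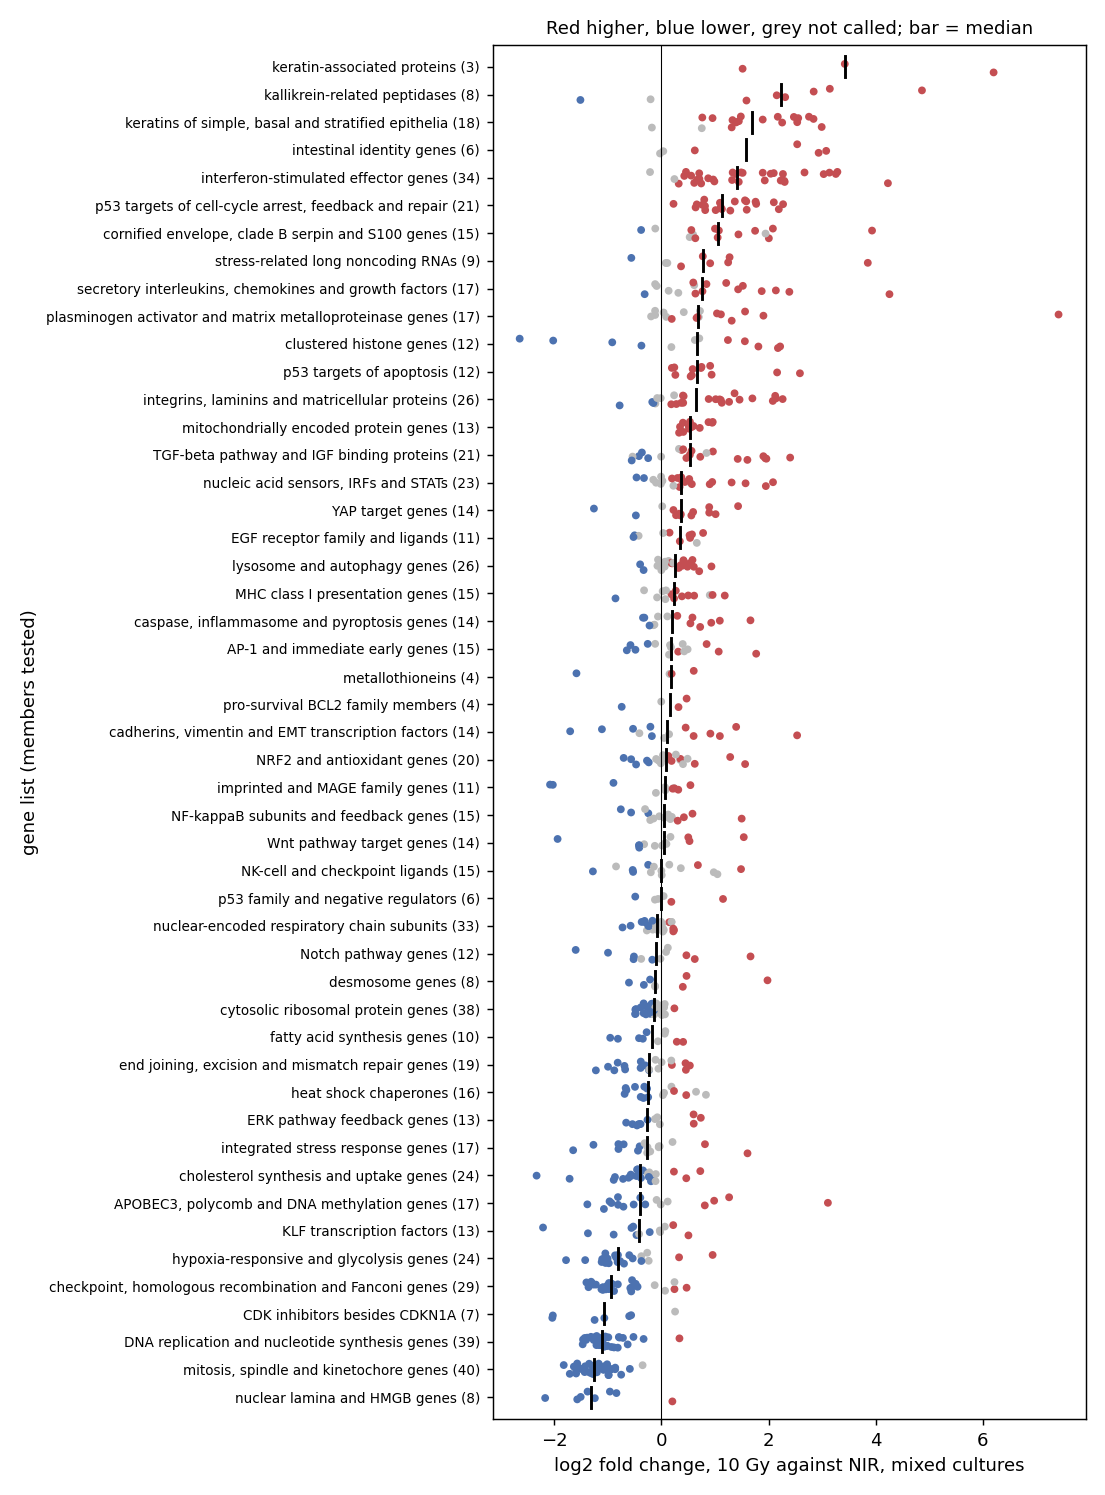
Log2 fold change (10 Gy against NIR, mixed cultures) of every tested member of the 49 gene lists, one point per gene, red called higher, blue called lower, grey not called; black bars are medians. Median values run from -1.31 for nuclear lamina and HMGB genes to 3.42 for 3 keratin-associated proteins; the point at 7.41 is SERPINB2, which had no count in NIR, so its place depends on the prior count of the fit.

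In the lists of signalling genes, members went both ways. Wnt targets were 3 higher and 4 lower of 14 tested, and 7 were not called. CCND1, cyclin D1, had 545, 510.5 and 498 CPM in the NIR libraries and 1539, 1528 and 1529 CPM after 10 Gy (1.54 ± 0.05, adjusted p = 2.8e-15), a rise without overlap. The Wnt receptor ligase ZNRF3 rose (0.53 ± 0.08, adjusted p = 7.8e-06) and TNFRSF19 fell from 5.71 ± 0.736 to 1.52 ± 0.331 CPM (-1.93 ± 0.22, adjusted p = 2.8e-07). Notch genes were 3 higher and 5 lower of 12: HES2 (1.66 ± 0.09, adjusted p = 1.5e-12) and the ligand JAG1 (0.62) rose, and HES4 fell (-0.99). EGF family genes were 6 higher and 2 lower of 11, with rises of the ligands AREG (0.53), TGFA (0.54) and HBEGF (0.57) and a fall of EREG (-0.52). ERK feedback genes were 3 higher and 7 lower of 13: ETV4 fell (-0.66) and DUSP4 (0.74) and EPHA2 (0.61) rose. Immediate early and AP-1 genes were 4 higher and 4 lower of 15. ATF3, a stress-induced factor, rose from 24.6 ± 7.31 to 85.6 ± 3.52 CPM (1.77 ± 0.13, adjusted p = 1.8e-10), as did FOSB (1.07) and JUN (0.85), and EGR1 fell (-0.64). KLF factors were 2 higher and 7 lower of 13: KLF7 (-1.37 ± 0.08, adjusted p = 1.7e-11) and KLF12 (-0.89) fell beside KLF2, and KLF10 rose (0.51).

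Metabolic genes were mostly lower. Of 24 cholesterol synthesis and uptake genes, 17 were lower and 3 higher (median -0.39). STARD4, a sterol carrier, had 68, 76.3 and 76.2 CPM in the NIR libraries and 22.3, 20.8 and 25.6 CPM after 10 Gy (-1.71 ± 0.08, adjusted p = 5.9e-13), and its groups were far apart. The sterol reductase gene TM7SF2 rose (0.73 ± 0.12, adjusted p = 3.1e-05). Fatty acid synthesis genes were 5 lower and 2 higher of 10: the regulator SREBF1 (-0.95 ± 0.08, adjusted p = 1.9e-09) and the desaturase genes SCD (-0.81) and FADS1 (-0.42) fell and ME1 rose (0.41). Of 24 hypoxia-responsive and glycolysis genes, 19 were lower and 2 higher (median -0.81). BNIP3, a mitophagy receptor, had 125, 112 and 149 CPM in the NIR libraries and 50.8, 45.6 and 50.4 CPM after 10 Gy (-1.42 ± 0.08, adjusted p = 1.1e-11). ENO2, an enolase, had 192, 182 and 226 CPM in the NIR libraries and 109, 86 and 87.6 CPM after 10 Gy (-1.11 ± 0.09, adjusted p = 7.5e-10). SLC2A1, the glucose transporter GLUT1, went the other way, with 194, 169 and 231 CPM in the NIR libraries and 445, 376 and 355 CPM after 10 Gy (0.96 ± 0.09, adjusted p = 1.3e-08). None of these 3 genes had overlapping groups.

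All 13 mitochondrially encoded protein genes were higher (median 0.53), led by MT-ND4L (0.96), MT-ATP8 (0.95) and MT-ND3 (0.88), while nuclear genes of the respiratory chain were 4 higher, 8 lower and 21 not called of 33. CYC1, cytochrome c1, fell from 175 ± 16.7 to 108 ± 2.14 CPM (-0.72 ± 0.07, adjusted p = 8.8e-09), UQCRC1 fell (-0.57) and ATP5MC1 was called higher (0.24 ± 0.07, adjusted p = 0.0067), a call that ended without irradiated replicate 3 (adjusted p = 0.0706). Cytosolic ribosomal protein genes were 19 lower and 1 higher of 38, with a small median (-0.14). RPL8 (-0.49), RPS14 (-0.48) and RPL5 (-0.48) fell and RPS23 rose (0.24).

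Of 26 lysosome and autophagy genes, 15 were higher and 2 lower (median 0.26). The autophagy gene WIPI1 rose from 18.8 ± 0.131 to 31.2 ± 2.38 CPM (0.71 ± 0.09, adjusted p = 8.5e-07) and cathepsin D (CTSD) from 18.6 ± 2.54 to 28.8 ± 2.66 CPM (0.61 ± 0.10, adjusted p = 5e-05), and the lysosomal channel gene MCOLN1 fell (-0.39). Antioxidant and NRF2 genes were 6 higher and 5 lower of 20, near the background. The ferritin heavy chain FTH1 rose from 202 ± 45.5 to 503 ± 25.2 CPM (1.28 ± 0.10, adjusted p = 5.6e-10), HMOX1 rose (0.62) and the cystine transporter gene SLC7A11 fell (-0.70). Integrated stress response genes were 7 lower and 2 higher of 17. PHGDH, which opens serine synthesis, fell from 87.2 ± 12.7 to 28.4 ± 0.253 CPM (-1.64 ± 0.09, adjusted p = 2.2e-12) and the sestrin gene SESN2 rose (0.81). DDIT3 was called lower (-0.80 ± 0.23, adjusted p = 0.0063), and without NIR replicate 2 its adjusted p was 0.116. Heat shock chaperones were 9 lower and 2 higher of 16: HSP90AB1 (from 5556 ± 100.2 to 3568 ± 117 CPM; -0.66 ± 0.05, adjusted p = 2e-10), HSP90AA1 (-0.65) and HSPE1 (-0.68) fell and the co-chaperone gene BAG3 rose (0.46). Of 4 tested metallothioneins, MT1E (0.60) and MT2A (0.19) were called higher and MT1F lower; the MT2A call ended without NIR replicate 1 (adjusted p = 0.183), irradiated replicate 1 (0.1) or irradiated replicate 2 (0.0504), and in the fit of all 18 libraries (0.183). Imprinted and MAGE genes were 4 higher and 3 lower of 11, where SGCE fell with its neighbour PEG10 (-0.89) and IGF2 rose (0.54). Of 9 tested long noncoding RNAs, 6 were higher and 1 lower: PINCR, a p53-induced RNA, rose from 0.76 ± 0.153 to 11.1 ± 0.968 CPM (3.85 ± 0.20, adjusted p = 1.4e-12), MIR34AHG, the host of miR-34a, from 7.4 ± 0.95 to 17.8 ± 0.425 CPM (1.25 ± 0.12, adjusted p = 1.6e-08), and SNHG1 fell (-0.56).

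The response was then set against that of the HCT116 monocultures, which share no library with it. Across 16344 genes tested in both, the responses correlated with r = 0.83 (Pearson) and rho = 0.829 (Spearman); against MCF10A monocultures r was 0.405 and rho 0.41 over 14207 genes. Genes are not independent, and these values are descriptions. The difference of the responses, mixed minus HCT116, was tested as an interaction over 12 libraries. Of 18072 genes tested, 150 were called (0.83%), 123 with a higher value in the mixed cultures (0.681%) and 27 with a lower one (0.149%). These counts rest on few libraries: leaving out 1 library in turn gave 48 (without NIR mixed replicate 1) to 137 (without NIR mixed replicate 2) higher and 12 (without irradiated mixed replicate 3) to 60 (without NIR mixed replicate 2) lower. DESeq2 gave 201 higher and 126 lower, so the higher share of the calls was 61.5% there and 82% in the edgeR fit.

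Interferon-stimulated effectors were 10 of the 123, all with a higher response in the mixed cultures. They were picked out after their values were seen. In HCT116, OAS3 (log2 fold change -0.12) and MX1 (-0.08) did not rise. NIR means were lower in the mixed than in the HCT116 cultures for all 10 but IFI44L and OAS2. OAS1 had 1.02 CPM in NIR and 9.2 CPM after 10 Gy in the mixed cultures, against 3.32 and 9.75 CPM in HCT116. For the others the irradiated mean was higher in the mixed cultures. IFI44L had 0.347, 0.311 and 0.217 CPM in NIR and 0.518, 0.539 and 0.35 CPM in irradiated HCT116 monocultures, against 9.91 to 11.1 CPM in the irradiated mixed libraries (response difference 3.53 ± 0.49, adjusted p = 0.0002). In MCF10A monocultures it had 7.24 ± 0.613 and 18.7 ± 4.23 CPM, where the estimated MCF10A share of irradiated mixed RNA was 1.23%. IFI6 had 16.4, 12.6 and 13.4 CPM in NIR and 22.5, 24.3 and 22.1 CPM in irradiated HCT116, and it rose further in the mixed cultures from a lower NIR level (1.39 ± 0.15, adjusted p = 3.2e-06). In MCF10A it reached 6.4 ± 0.654 CPM, less than in either of the other irradiated cultures. OAS1 (1.59 ± 0.24, adjusted p = 0.00054), IFIT1 (0.91 ± 0.14, adjusted p = 0.00063) and OAS3 (0.59 ± 0.09, adjusted p = 0.00048) held their calls in all 12 fits that left out 1 library, as IFI44L and IFI6 did. IFI44 (1.54 ± 0.31, adjusted p = 0.011) lost its call in 1 of the 12 fits, OASL (0.92 ± 0.18, adjusted p = 0.008) in 2, IFI27 (1.04 ± 0.23, adjusted p = 0.023) in 9, OAS2 (2.19 ± 0.53, adjusted p = 0.045) in 10 and MX1 (1.53 ± 0.36, adjusted p = 0.038) in 11. Adjusted p-values over those fits ran up to 0.0512 for IFI44 and 0.13 for OAS2. Of the sensors, RIGI had a higher response (1.02 ± 0.23, adjusted p = 0.025) and TLR3 a lower one (-0.66 ± 0.16, adjusted p = 0.049), and these calls were lost in 9 and 10 of the 12 fits.

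**Figure D4:**
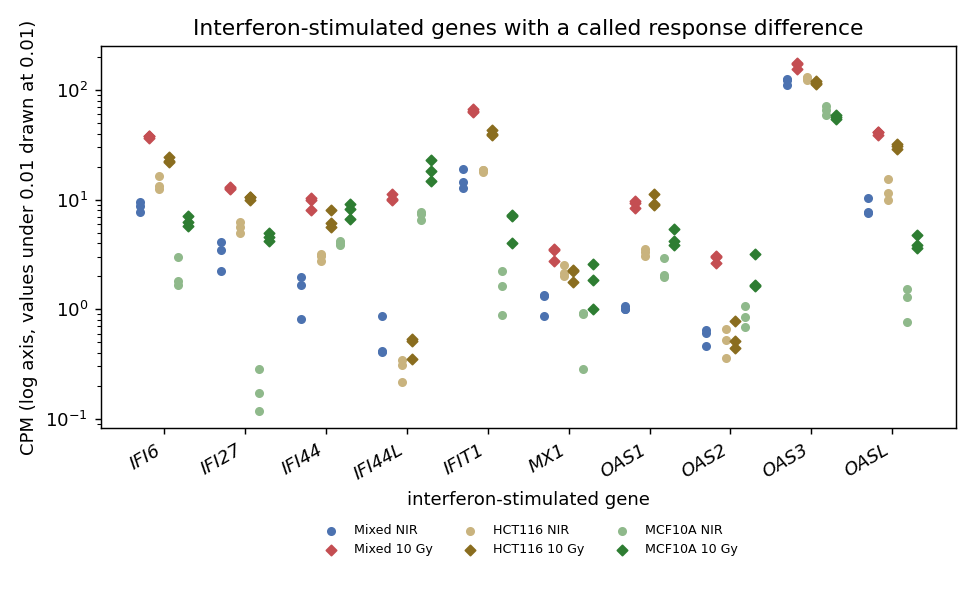
Level of the 10 interferon-stimulated genes with a called response difference (CPM, log axis), one point per library, for mixed, HCT116 and MCF10A cultures, NIR as circles and 10 Gy as diamonds. The step from NIR to 10 Gy is larger in the mixed than in the HCT116 libraries for each gene, and IFI44L stays under 1 CPM in all HCT116 libraries.

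Of the matrix and adhesion genes, 6 had a called difference, of which 5 are given here, also picked out after their values were seen. FN1 had 97.4, 62.7 and 64.2 CPM in NIR and 39.6, 44.2 and 43.2 CPM in irradiated HCT116, a fall, where the mixed cultures rose (2.09 ± 0.14, adjusted p = 1.2e-09). In MCF10A monocultures it stood at 1325 ± 41.1 and 5769 ± 362 CPM. The integrin gene ITGB3 fell in HCT116 from 2.25 to 0.303 CPM, while in the mixed cultures it had 2.4, 1.9 and 2.22 CPM in the NIR libraries and 3.12, 1.87 and 2.84 CPM after 10 Gy, overlapping groups that were not called (3.09 ± 0.47, adjusted p = 0.00059 for the difference). Both calls held in all 12 fits without 1 library. TNC (4.59 ± 1.01, adjusted p = 0.024) lost its call in 5, LAMB3 (0.60 ± 0.14, adjusted p = 0.039) in 8 and THBS1 (0.51 ± 0.11, adjusted p = 0.024) in 9. In irradiated MCF10A, TNC stood at 79.9 CPM, LAMB3 at 3659.9 CPM and THBS1 at 1286 CPM, each above the irradiated mixed cultures, and the part of MCF10A RNA in FN1 and in these 3 genes was not tested. ITGB3 was low in MCF10A, at 1.04 CPM in NIR and 6.52 CPM after 10 Gy.

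The other named genes with a higher response in the mixed cultures, except AMIGO2, fell less than in HCT116 alone. ANKRD37, a hypoxia-induced gene, had a log2 fold change of -1.1 in the mixed cultures and fell further in HCT116 (difference 1.85 ± 0.33, adjusted p = 0.0038). It went from 6.14 to 2.93 CPM in the mixed cultures and from 18.5 to 2.42 CPM in HCT116, so the cultures differed mainly in NIR. EGR1 (0.98 ± 0.16, adjusted p = 0.00096) and KLF7 (0.71 ± 0.12, adjusted p = 0.0014) also fell less, as did SLC7A11 (0.87 ± 0.20, adjusted p = 0.029) and PEG10 (0.47 ± 0.11, adjusted p = 0.038), of which the last pair lost their calls in 9 and 11 of 12 fits. NIR means were lower in the mixed cultures than in HCT116 for EGR1 (123 against 208 CPM) and KLF7 (43.5 against 49.1 CPM), and higher for SLC7A11 and PEG10. AMIGO2, an adhesion protein gene, had 6.69 ± 1.09 CPM in NIR and 2.73 ± 0.349 CPM in irradiated HCT116, against from 10.4 ± 1.63 to 13.2 ± 0.511 CPM in the mixed cultures (1.6 ± 0.21, adjusted p = 0.00015). In the mixed cultures alone its rise was 0.32 ± 0.12, adjusted p = 0.039, and it was not called in 5 of the 6 fits that left out 1 library. MCF10A monocultures held 118 ± 3.15 CPM of AMIGO2 in NIR and 163 ± 8.4 CPM after 10 Gy. The part of MCF10A RNA in its difference was not tested.

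Genes with a lower response in the mixed cultures mostly rose less. GALNT5 (-0.52 ± 0.09, adjusted p = 0.0032), CCND1 (-0.36 ± 0.07, adjusted p = 0.0069), the zinc finger gene ZBED2 (-0.98 ± 0.17, adjusted p = 0.0022) and the lipid transporter gene ABCA12 (-0.81 ± 0.17, adjusted p = 0.014) rose in both cultures, by a larger fold change in HCT116. ZBED2 started higher in the mixed cultures and rose from 24.5 to 75.1 CPM, against from 8.78 to 52 CPM in HCT116. The NIR mean was also higher in the mixed cultures for CCND1, and lower for GALNT5 and ABCA12. GALNT5 was not called in the fit of all 18 libraries (adjusted p = 0.0731), and ABCA12 was not called without NIR mixed replicate 3 (adjusted p = 0.0508). The general transcription factor gene TAF3 (-0.69 ± 0.14, adjusted p = 0.011) was not called in the mixed cultures (0.08). The histone gene H2BC11 fell in the mixed cultures from 39.3 ± 3.87 to 30.9 ± 0.565 CPM and rose in HCT116 from 0.317 ± 0.291 to 1.45 ± 0.32 CPM (-2.66 ± 0.35, adjusted p = 0.00014). MCF10A monocultures, whose cells express a histone H2B fusion, held 252 ± 14.7 CPM in NIR and 276 ± 20.8 CPM after 10 Gy. The NIR mixed cultures thus lay well above HCT116 for this gene, although the estimated share of MCF10A RNA in them was 0.420%. Whether reads of the fusion were counted to H2BC11 was not tested.

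**Figure D5:**
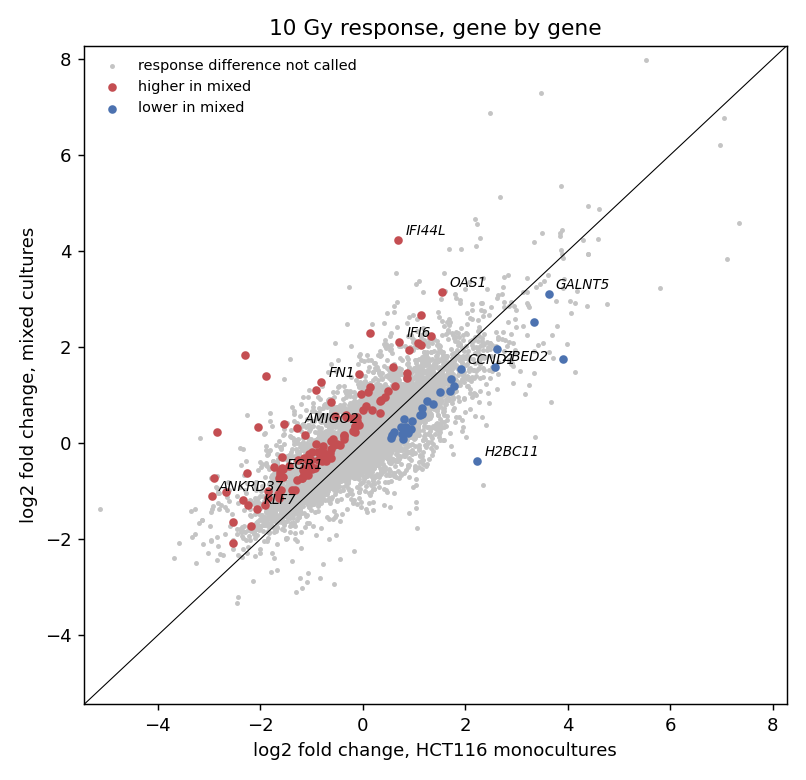
Log2 fold change after 10 Gy in mixed cultures (vertical) against HCT116 monocultures (horizontal) for genes tested in both, with the line of equal response; coloured points have a called response difference, red higher and blue lower in mixed. The cloud follows the line, with IFI44L, OAS1, IFI6 and FN1 above it and H2BC11 below.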

How the data were processed

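RNA was sequenced as stranded poly(A) mRNA libraries. The authors deposited 1 table of raw counts per gene symbol and library; per the submitters' processing notes, fastp, STAR, featureCounts and GRCh38 were used, and versions, annotation and strand setting are not given in the sources used here. Low counts were mostly even (68.4% of values from 1 to 10 over 18 libraries), so a fit on halved counts was an alternative. At 27.9 to 37.4 M counts a mixed library (M is 1e+06), counting error is small above a few CPM; no library was a copy of another.

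Groups were compared with edgeR 4.0.16 in R 4.3.3 (TMM, filterByExpr, quasi-likelihood test, 2-sided, Benjamini-Hochberg over all genes tested, threshold 0.05), and the difference from the HCT116 response as an interaction. Genes were named by rule, first CDKN1A, MDM2, GDF15, MKI67, TOP2A and 1 more fixed gene. Among called genes without overlap, the rule took the 10 largest changes in each direction from 10 CPM and the 5 largest from 200 CPM. In each of 49 lists it took up to 3 called members from 5 CPM and the largest in the other direction. For response differences it took the 5 largest in each direction with at least 10 CPM in the highest of the 4 groups. Interferon-stimulated and matrix list members with a called difference were added. Some called genes below 10 CPM had larger differences than named ones, among them CDH2 (5.19, specific to MCF10A), VIM (3.31) and, in the lower direction, CLCA2 (-2.12). Some genes the rule named are not reported here. The members and lists were chosen with earlier results of these data known. A gene specific to MCF10A had at least 20 CPM in MCF10A of either treatment and under 1 CPM in every HCT116 library. Tested on simulated data with 200 changed genes, the irradiation fit recovered 86% of 2-fold and 77% of 1.5-fold changes over 16906 genes, and the interaction 73% and 52% over 18072. The simulation gave all genes the same dispersion and changed far fewer genes than the irradiation fit called. These percentages check the code and are not the power in the deposited data. Alternatives were other normalizations, no filter, DESeq2 1.42.0, halved counts, a replicate block, all 18 libraries in 1 fit, fits without abundant and mitochondrial genes or without each library in turn and, added after seeing the data, without genes specific to MCF10A. Promoters were matched by symbol.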

Additional observations from a re-analysis of the deposited data

Results flagged for a closer look

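The response to 10 Gy differed between mixed cultures and HCT116 monocultures for 29 reported genes, by edgeR's interaction test over 12 libraries with adjusted p under 0.05. Values are differences of log2 fold changes, mixed minus HCT116. Among interferon-stimulated and sensor genes these were IFI44L (3.53), OAS2 (2.19), OAS1 (1.59), IFI44 (1.54), MX1 (1.53), IFI6 (1.39), IFI27 (1.04), RIGI (1.02), OASL (0.916), IFIT1 (0.911), OAS3 (0.592) and, in the other direction, TLR3 (-0.66). In the matrix and adhesion list they were TNC (4.59), ITGB3 (3.09), FN1 (2.09), LAMB3 (0.604) and THBS1 (0.508). The other genes with a higher response in the mixed cultures were ANKRD37 (1.85), AMIGO2 (1.6), EGR1 (0.984), SLC7A11 (0.866), KLF7 (0.706) and PEG10 (0.474). Those with a lower one were H2BC11 (-2.66), ZBED2 (-0.985), ABCA12 (-0.807), TAF3 (-0.687), GALNT5 (-0.517) and CCND1 (-0.361). In 12 fits that each left out 1 library, 16 of the 29 kept their call every time, and MX1 and PEG10 kept it in 1 fit each. All 29 kept their direction in these fits.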

How the results depend on the processing

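Counts of genes called in the irradiation response stayed within 1.5 times of the reported values under every alternative run: 3462 to 3800 higher and 3862 to 4193 lower with 1 library left out, and 4556 higher and 3734 lower with all 18 libraries in 1 fit. No named gene that was called in the reported fit reversed its direction under any alternative. Reversals of genes not called there were not recorded. Medians of gene lists stayed within their SD between libraries in 740 comparisons with an alternative and moved further in 43. Kallikreins went from 2.23 to 1.72 without NIR replicate 2, and clustered histones from 0.667 to 1.21 without a filter. The cornified envelope, serpin and S100 list went from 1.05 to 0.674 with all 18 libraries in 1 fit. Counts for the response difference moved more. Without a filter on low counts, 253 genes were higher and 83 lower in the mixed cultures, and DESeq2 gave 201 and 126, against 123 and 27 in the reported fit. With 1 library left out in turn, 48 to 137 were higher and 12 to 60 lower. The higher count was 48 to 78 without any 1 of the HCT116 NIR replicates 1 and 2, the 3 irradiated HCT116, the 3 irradiated mixed libraries or mixed NIR replicate 1, and the lower count was 16 without irradiated HCT116 replicate 1, 12 without irradiated mixed replicate 3, 60 without mixed NIR replicate 2 and 46 without mixed NIR replicate 3. The estimated MCF10A share was 0.339% (NIR) and 1.03% (10 Gy) with a minimum of 50 CPM for specific genes, and 0.860% and 2.04% from mean ratios. The cause of these changes was not tested.

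Replicate numbers did not pair the NIR with the irradiated mixed libraries: the correlation of residuals between same-numbered libraries was -0.115, -0.0174 and 0.00912. Between mixed and HCT116 libraries of the same number it was 0.136, -0.00425 and 0.209 in NIR and 0.181, 0.0686 and 0.0521 after irradiation. Differently numbered pairs of these cultures ran from -0.2 to 0.0829 in NIR and from -0.127 to 0.0723 after irradiation. The reported fit of the response difference had no replicate term. Whether pairing within each treatment altered the difference calls was not tested. With the replicate block 3920 genes were higher and 4130 lower in the irradiation response, and 103 and 22 in the response difference. Calls lost there were RCHY1 (adjusted p = 0.0665) in the response and LAMB3 (0.0592), MX1 (0.0552), OAS2 (0.0658) and TLR3 (0.0729) in the difference. Other settings ended the difference calls of MX1 and GALNT5 (all 18 libraries, 0.122 and 0.0731), SLC7A11 (DESeq2, 0.139), OAS2, PEG10, TNC and TLR3 (halved counts, 0.0543, 0.05, 0.0918 and 0.0587) and TLR3 (upper-quartile factors, 0.0506, library size alone, 0.058, and without genes specific to MCF10A, 0.0512). In the response, RCHY1 and AMIGO2 lost theirs without a filter (0.139 and 0.0618), and RCHY1 without mitochondrial and abundant genes (0.0521).

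With 3 libraries a group, an exact permutation test of a single value cannot go below p = 0.1. Changes in genes under about 1 CPM rest on few counts, and 14 clustered histone genes and most intestinal genes were not measured well enough to test. A list's count of higher genes can hold MCF10A transcripts, whose estimated share was higher in the irradiated libraries (exact permutation p of 0.1).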
